A study of Mus musculus with 6 samples.

Results

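PAR bZIP factors are transcription factors through which the circadian clock reaches metabolic genes. They were described in the kidneys of cisplatin-treated mice as 4 genes, the activators Hlf, Tef and Dbp and the repressor Nfil3, out of the 54532 genes of the deposited tables, in which each of the 4 has 1 entry. The 4 genes were chosen by measured values of these same libraries, on the ground that Hlf and Tef differed between genotypes while core clock genes did not. For the core clock genes this holds only in part, as given below. Because of this choice, the differences of the 4 genes between genotypes, and those of the core clock genes, are given as a description with no test.

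RNA was sequenced from the kidney tissue of male mice in 3 wild-type (WT) and 3 Trpm2-/- libraries, all labelled C57BL/6J and 6 to 8 weeks old (the methods give a somewhat older range). The mice had received one intraperitoneal dose of 18 mg/kg cisplatin, a platinum drug that injures the tubular epithelium, and kidneys were taken at 72 h. Trpm2 encodes a calcium-permeable cation channel. The Trpm2-/- allele lacks exons that encode part of the membrane-spanning region, so its product does not form a working channel. No tissue-specific driver of the deletion is named in the sources used here. The WT mice were purchased and the mutant line was brought from another institute, so origin and genotype cannot be told apart. All 6 kidneys were treated, so the genotypes are compared in injured kidneys. The libraries are numbered as replicates 1, 2 and 3 for WT and 1, 2 and 4 for Trpm2-/-, and are called kidneys here. The labels do not say in words that each came from a separate mouse, so p-values measure the spread between these libraries. Mice were kept on a 12-h light/dark cycle, and the time of day at which kidneys were taken is not given in the sources used here.

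Total gene counts were between 15991951 and 17150089 in the WT libraries and between 14053307 and 16150446 in the Trpm2-/- libraries. At this depth a value of 3 counts corresponds to 0.175 to 0.213 CPM (gene counts scaled to the library size), a limit that covers counting error only. Reads on the mitochondrial genome took 4.43% to 4.72% of the WT counts and 7.91% to 11.0% of the Trpm2-/- counts. With these genes left out of the library sizes, the log2 fold changes given below were -1.48 for Hlf and -0.70 for Tef. The count of Trpm2 itself was 5 to 27 in WT and 10 to 20 in Trpm2-/- libraries. As it also covers exons kept in the allele, it does not check the genotype labels. Proximal tubule markers were abundant in all 6 libraries, and all of the kidney cell types listed for comparison were represented apart from natural killer and innate lymphoid cells. Trpm2-/- replicate 4 stood apart from the other 2 Trpm2-/- libraries in podocyte markers (summed level 353 against 93.1 and 106 CPM) and endothelial markers (142 against 33.0 and 35.6 CPM), so values without it are given below. Across the 15816 genes that passed the filter on low counts, 1152 (7.28%) were called lower in Trpm2-/- and 750 (4.74%) higher at an adjusted p under 0.05 by the quasi-likelihood test of edgeR, with p adjusted by Benjamini-Hochberg over all genes, together 12.0%. The median log2 fold change over these genes was 0.02.

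The circadian clock is a loop in which CLOCK and BMAL1 (the product of Arntl) bind E-box elements and activate, among others, the Per and Cry genes, whose products then repress them. Dbp is a direct E-box target of this loop. DBP, TEF and HLF carry a proline- and acidic amino acid-rich (PAR) domain beside the basic leucine zipper (bZIP), form homo- and heterodimers, and activate genes through D-box elements. NFIL3, also called E4BP4, lacks the PAR domain, binds the same elements as a repressor, and is itself under the control of REV-ERB and ROR receptors through ROR response elements. In kidney and liver the 3 activators are known for driving genes of drug, haem and lipid metabolism, with overlapping roles.

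Hlf (hepatic leukemia factor, ENSMUSG00000003949) lies on the minus strand of mouse chromosome 11, from 90336536 to 90390895, and has 6 annotated transcripts in GENCODE. The positions that the table gives for all 4 genes are those of the GRCm38 assembly. Hlf had 741, 692 and 905 counts in WT replicates 1, 2 and 3, and 302, 150 and 366 counts in Trpm2-/- replicates 1, 2 and 4. Per length, as FPKM (fragments scaled to gene length and library size), these were 6.00, 5.83 and 7.25 in WT and 2.44, 1.34 and 3.03 in Trpm2-/-. Every Trpm2-/- kidney was below every WT kidney, with the lowest value in Trpm2-/- replicate 2 and the highest of that genotype in replicate 4. The mean level was 6.36 ± 0.775 FPKM (SD, n = 3) in WT and 2.27 ± 0.855 FPKM (SD, n = 3) in Trpm2-/-. The log2 fold change was -1.50 (standard error, SE, 0.253), which is 0.354 of the WT level, and 1.73% of all genes tested had a lower value. Without Trpm2-/- replicate 4 it was -1.74, and without Trpm2-/- replicate 2, the lowest kidney, it was -1.24.

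The 250 bases before the Hlf start site in RefSeq (GRCm38.p6, chr11:90390918-90391167, minus strand) are shown because Hlf has the largest difference of the 4 genes and because no clock element was found in them. Letters in capitals mark TGACGTCA, the cAMP response element (CRE), which starts 9 bases before the start site. The window held no E-box (CACGTG), no D-box (TTATGTAA or TTACGTAA) and no ROR response element (RORE, TAGGTCA), each searched on both strands.
Hlf: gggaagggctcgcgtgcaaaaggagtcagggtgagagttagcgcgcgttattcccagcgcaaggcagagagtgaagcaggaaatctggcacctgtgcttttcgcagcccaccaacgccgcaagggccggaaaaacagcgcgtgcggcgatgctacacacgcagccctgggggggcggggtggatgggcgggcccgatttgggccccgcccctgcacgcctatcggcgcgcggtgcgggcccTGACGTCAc
In windows of 300 bases, from 250 before to 50 after the start, the CRE was found at 1.79% of 32851 RefSeq start sites, the E-box at 7.15%, the RORE at 2.61% and the D-box at 1.06%. The CRE was added to the search after this sequence had been read. A match describes letters in a window and not a site in use.

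Tef (thyrotroph embryonic factor, ENSMUSG00000022389) lies on the plus strand of chromosome 15, from 81802421 to 81826863, and has 10 annotated transcripts. It had 3592, 3927 and 4546 counts in the WT kidneys and 2262, 2014 and 2921 counts in the Trpm2-/- kidneys. The corresponding levels were 24.7, 28.1 and 30.9 FPKM in WT and 15.5, 15.3 and 20.5 FPKM in Trpm2-/-. The groups did not overlap, with replicate 4 again the highest of the Trpm2-/- kidneys. Mean Tef was 27.9 ± 3.11 FPKM (SD, n = 3) in WT and 17.1 ± 2.96 FPKM (SD, n = 3) in Trpm2-/-. Its log2 fold change was -0.72 (SE 0.159), or 0.608 of the WT level, with 8.75% of the genes tested below it. It was -0.85 without Trpm2-/- replicate 4. Tef shares 2.45% of its exon bases with the antisense gene Gm17597, which had at most 15 counts in a library.

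Tef has 2 RefSeq start sites among the windows searched, and each had an E-box, the element through which the core clock acts. They are shown, with the E-box in capitals, as the counterpart to the Hlf window. The first is 127 bases before its start site (chr15:81802536-81802563, plus strand) and only its surroundings are given, since GENCODE annotates exons there. The second starts 138 bases before its start site, in the 250 bases at chr15:81811164-81811413 (plus strand), which hold no annotated exon.
Tef, first start site: gctgtggctcCACGTGctgcagctggca
Tef, second start site: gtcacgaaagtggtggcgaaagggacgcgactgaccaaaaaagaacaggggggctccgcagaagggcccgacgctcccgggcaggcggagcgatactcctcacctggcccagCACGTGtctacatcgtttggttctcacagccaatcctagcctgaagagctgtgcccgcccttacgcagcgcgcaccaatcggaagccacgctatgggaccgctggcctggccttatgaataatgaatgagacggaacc
Neither Tef window held a D-box, a RORE or a CRE.

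Dbp (D site albumin promoter binding protein, ENSMUSG00000059824), on the plus strand of chromosome 7 from 45705088 to 45710203, is the activator that follows the core clock most directly. It had 238, 375 and 290 counts in WT and 275, 213 and 297 counts in Trpm2-/- kidneys. These were 4.30, 7.05 and 5.18 FPKM in WT and 4.95, 4.26 and 5.49 FPKM in Trpm2-/-. The groups overlapped, and the highest kidney was WT replicate 2. The means were 5.51 ± 1.40 FPKM (SD, n = 3) and 4.90 ± 0.616 FPKM (SD, n = 3). The log2 fold change was -0.18 (SE 0.208), with 32.4% of the genes tested below it, and it turned to 0.03 without WT replicate 2. Sphk2, a sphingosine kinase gene on the opposite strand, covers 18.0% of the exon bases of Dbp and had 442 to 805 counts. Whether the reads were counted by strand is not stated, so part of the Dbp count could belong to Sphk2, whose own log2 fold change was -0.55 (SE 0.148). None of the 4 motifs was found in the Dbp window.

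Nfil3 (ENSMUSG00000056749), on the minus strand of chromosome 13 from 52967209 to 52981073, had 370, 555 and 506 counts in WT and 443, 427 and 436 counts in Trpm2-/- kidneys. The levels were 9.88, 15.4 and 13.4 FPKM in WT and 11.8, 12.6 and 11.9 FPKM in Trpm2-/-. All Trpm2-/- kidneys lay inside the WT range. The means were 12.9 ± 2.80 FPKM (SD, n = 3) in WT and 12.1 ± 0.449 FPKM (SD, n = 3) in Trpm2-/-, and the log2 fold change was -0.10 (SE 0.173), turning to 0.04 without WT replicate 2. The Nfil3 window had a RORE on the opposite strand, the element of the receptors named above. It starts 12 bases before the start site (chr13:52981040-52981061, minus strand), and its letters are in capitals.
Nfil3: cgctcggaacTGACCTActaac

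**Figure D1:**
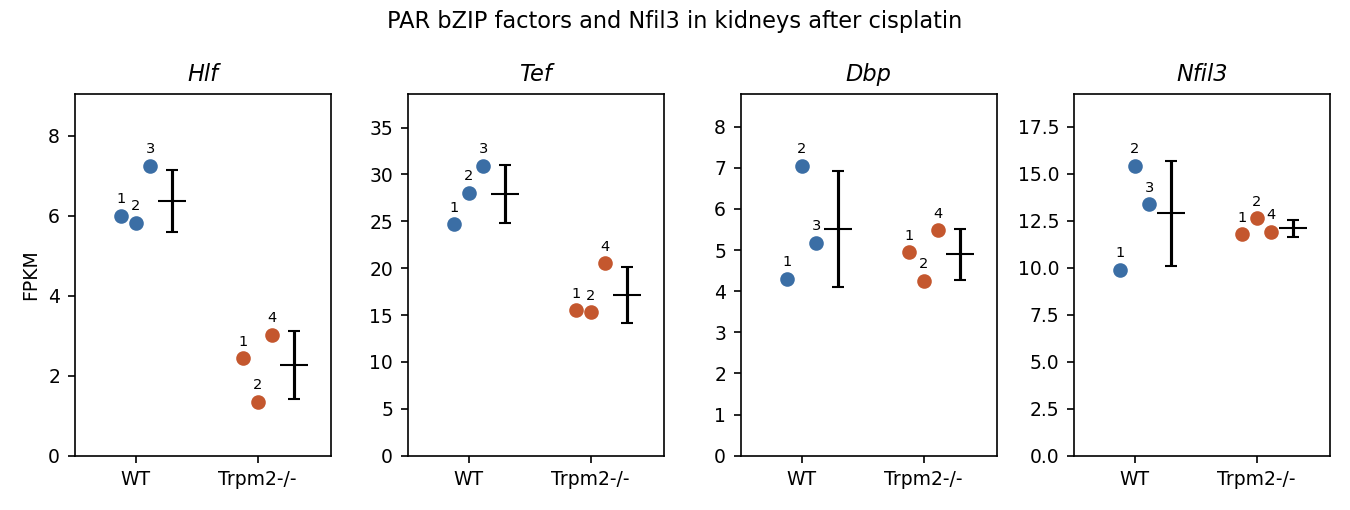
Level of each of the 4 genes in FPKM (vertical axes, each starting at 0) in single kidneys, with the replicate number over each point and the mean ± SD (n = 3) in black. The groups are apart for Hlf (1.34 to 3.03 in Trpm2-/- against 5.83 to 7.25 in WT) and Tef (15.3 to 20.5 against 24.7 to 30.9), and overlap for Dbp and Nfil3.

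In Hlf and Tef all Trpm2-/- kidneys were below all WT kidneys, as in 16.8% of the genes tested. As the 4 genes were picked on this contrast, nothing is read from this count. None of the 4 shares a stretch of 50 transcript bases with another gene.

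Per length, the order of the levels differed between genotypes only in Hlf and Dbp. In all 6 kidneys Tef was the highest and Nfil3 the next. Hlf was above Dbp in WT replicates 1 and 3 and below it in WT replicate 2, so these neighbours did not differ beyond their spread in WT. In the 3 Trpm2-/- kidneys Dbp was above Hlf, with ranges that did not overlap (4.26 to 5.49 against 1.34 to 3.03 FPKM). The ratio of Hlf to Dbp averaged 1.21 in WT and 0.453 in Trpm2-/-, and the ratio of Tef to Hlf averaged 4.40 and 8.18.

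As the 3 activators bind the same element, their FPKM values were also added. The sum was 35.0, 40.9 and 43.3 FPKM in the WT kidneys and 22.9, 20.9 and 29.0 FPKM in the Trpm2-/- kidneys. The groups did not overlap, and the mean of 24.3 ± 4.24 FPKM (SD, n = 3) in Trpm2-/- was 38.9% below the 39.8 ± 4.29 FPKM (SD, n = 3) of WT. Tef made up most of the sum in both genotypes, at 70.2% ± 1.43 in WT and 70.5% ± 2.76 in Trpm2-/- (SD, n = 3 each). The share of Hlf was 16.0% ± 1.58 in WT and 9.17% ± 2.38 in Trpm2-/-, and that of Dbp 13.8% ± 2.94 and 20.3% ± 1.38. Activator transcripts relative to the repressor, the sum divided by Nfil3, were 3.54, 2.66 and 3.24 in WT and 1.94, 1.66 and 2.44 in Trpm2-/-. Here, too, the groups did not overlap, although the highest Trpm2-/- kidney (replicate 4) was near the lowest WT kidney (replicate 2). The sum and this ratio are built from the values by which the 4 genes were chosen, with Tef as most of the sum. Their separation largely follows from that choice, so nothing further is read from it. Among single genes tested, 16.8% had all Trpm2-/- kidneys below all WT kidneys. Transcript sums do not measure protein or binding.

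**Figure D2:**
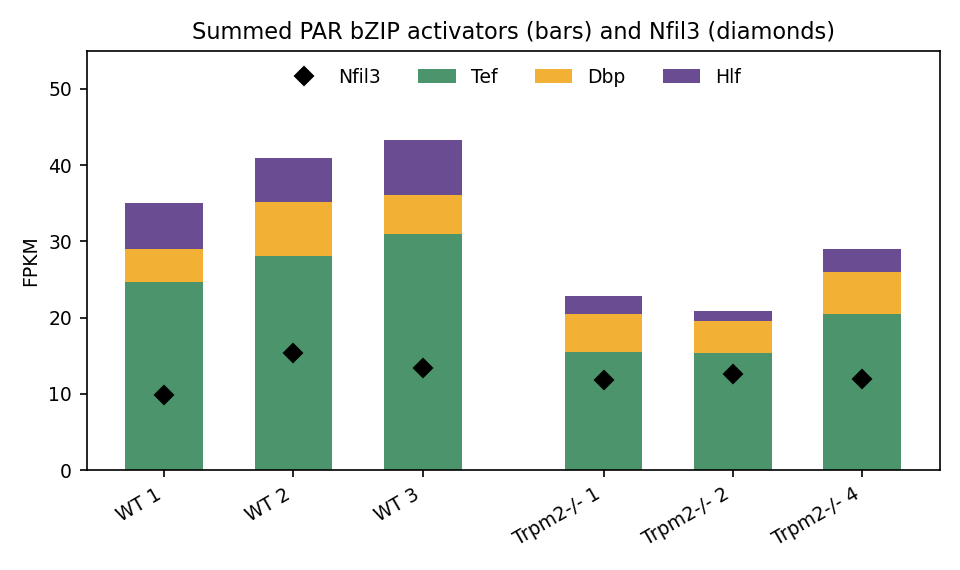
FPKM of Tef, Dbp and Hlf stacked in 1 bar for each kidney, with Nfil3 as a diamond on the same axis. The bars reach 35.0 to 43.3 FPKM in WT and 20.9 to 29.0 FPKM in Trpm2-/-, while Nfil3 stays between 9.88 and 15.4 FPKM.

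The core clock genes, which served in choosing the 4 genes, are given beside them. All 18 genes of the list passed the filter, their median log2 fold change was 0.09, and their values ran from -0.85 (Ciart) to 0.67 (Csnk1e). Csnk1e, which encodes a casein kinase acting on PER proteins, had 31.9, 27.8 and 26.1 CPM in WT and 42.2, 42.3 and 52.2 CPM in Trpm2-/- kidneys. The groups were apart, with replicate 4 the highest of the Trpm2-/- kidneys. As a description, Csnk1e was the only 1 of the 18 past the threshold of an adjusted p under 0.05 in the edgeR fit.

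In the activating limb, Arntl had a log2 fold change of -0.04 (SE 0.211), Npas2 of 0.02 (0.298) and Clock of 0.47 (0.140). Clock was at 53.5, 47.8 and 44.7 CPM in WT and 75.9, 58.7 and 67.3 CPM in Trpm2-/-, so its groups did not overlap. In the repressing limb the log2 fold changes were -0.23 for Per1, 0.10 for Per2, -0.03 for Per3, 0.20 for Cry1 and -0.17 for Cry2, with SE of 0.159 to 0.269. The kidneys of both genotypes overlapped in each of these 5 genes. The REV-ERB genes had values of 0.19 (Nr1d1, SE 0.149) and 0.33 (Nr1d2, SE 0.141). Groups were apart in 6 of the 18 genes, where 33.5% of all genes tested were apart in either direction. Trpm2-/- kidneys were above in Clock, Nr1d2, Bhlhe40, Bhlhe41 and Csnk1e and below in Ciart. Ciart, an E-box-driven repressor of the loop, had 4.69, 6.23 and 5.34 CPM in WT and 2.94, 3.07 and 2.99 CPM in Trpm2-/-. Dbp, which shares its input with the Per genes and Nr1d1, thus lay among the core clock values, and Hlf lay below all 18.

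**Figure D3:**
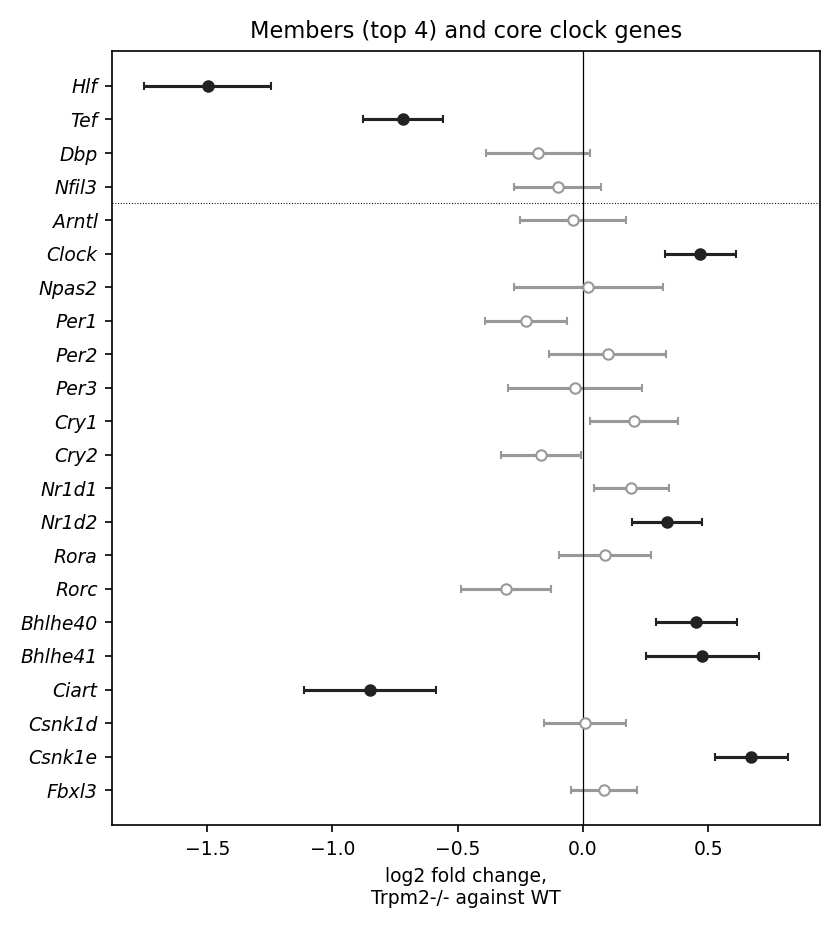
Log2 fold change of Trpm2-/- against WT (horizontal axis) with its standard error for the 4 genes, above the dotted line, and the 18 core clock genes. Filled black points mark genes in which the kidneys of the genotypes did not overlap. Hlf (-1.50) lies left of every core clock gene, of which Ciart (-0.85) is the lowest.

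Genes reported as targets of PAR bZIP factors were then examined. The choice of the 4 genes did not use them, but they were listed with earlier results of these data known. Their counts are therefore not independent of these data. Of 21 genes listed from general knowledge, 14 passed the filter, 5 of these fell in Trpm2-/- kidneys and none rose (background 7.28% lower and 4.74% higher) by the same test. Their median log2 fold change was -0.71, against 0.02 over all genes, with 10 values below 0 and 4 above. All Trpm2-/- kidneys were below all WT kidneys in 7 genes (16.8% of all genes) and above in 1, Acot2. By the rule of the study's methods, a log2 fold change below -1 and an unadjusted p under 0.05, 4 were lower (4.10% of all genes). The summed level of the listed targets in Trpm2-/- was 0.490 of that in WT. Cyp4a14 and Cyp4a10, at means of 1743 and 1382 CPM in WT, made up most of the WT sum of 3771 to 4800 CPM. This ratio therefore mainly describes these genes and not the list as a whole. For proximal tubule markers, of which 7 of 8 also fell, the ratio was 0.347. The part of cell composition in these values was not tested.

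The fatty acid hydroxylase Cyp4a14 fell the most. It was at 1372, 1997 and 1860 CPM in WT and 557, 262 and 534 CPM in Trpm2-/-, a log2 fold change of -1.95 (SE 0.287, adjusted p = 0.00397). Its relative Cyp4a10 fell by 1.00 on the log2 scale (SE 0.175, adjusted p = 0.0077). The count of Cyp4a10 is uncertain, since 29.8% of its 50-base windows also occur in Cyp4a31 and Cyp4a32. Alas1, the rate-limiting enzyme of haem synthesis, was at 373, 436 and 440 CPM in WT and 290, 248 and 193 CPM in Trpm2-/-, with a log2 fold change of -0.77 (SE 0.172, adjusted p = 0.0205). Among the acyl-CoA thioesterases, which split fatty acyl-CoA, Acot4 fell by 0.80 (SE 0.149, adjusted p = 0.00944) and Acot3 by 1.12 (SE 0.282, adjusted p = 0.0328) on the log2 scale. Acot1 (-0.65) and Acot2 (0.13) were not called. Acot3 shares 19.1% of its windows with other Acot genes and Acot4 4.53%, so reads could be split between these neighbours.

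Por, the reductase that supplies electrons to cytochrome P450 enzymes, had a log2 fold change of -0.0044 (SE 0.199, adjusted p = 0.992). Ppara, a fatty acid receptor that itself drives Cyp4a and Acot genes, had a log2 fold change of 0.98 (SE 0.403, adjusted p = 0.146) and its groups overlapped. Cyp2a5 (-1.16, adjusted p = 0.0599) and Cyp2b10 (-1.56, adjusted p = 0.172) were not called, and Cyp2b10 reached 18.8 CPM in WT replicate 2 against 1.97 and 4.42 CPM in the other WT kidneys. The remaining genes tested, Cyp3a13, Abcb1a and Pdxk, had overlapping groups. The 7 genes that did not pass the filter are mainly known from liver or intestine, and 3 of them (Cyp2c37, Cyp2c50 and Cyp7a1) had no count in any library. The number of targets called depended on single libraries. Without WT replicate 3 it was 2, while the number of all genes called lower went from 1152 to 470. By edgeR's test Acot4 (log2 fold change -0.67, adjusted p = 0.0526), Alas1 (-0.74, adjusted p = 0.0942) and Acot3 (-0.81, adjusted p = 0.152) were then not called. Alas1 was also lost without WT replicate 2 (0.0877), and Acot3 without WT replicate 1 (0.0513), Trpm2-/- replicate 1 (0.0853) or Trpm2-/- replicate 2 (0.0685). Without Trpm2-/- replicate 4 the number was 7, with the same 5 genes and also Cyp2a5, lower, and Ppara, higher.

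A D-box was found in none of the 12 tested target genes with a RefSeq window and in none of 9 clock output genes of the next list, where 1.06% of all windows hold one. This says only that these letters are not in the 300 bases searched.

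Genes of the kidney known to follow the clock were the other list of outputs, also compiled with earlier results of these data known. Of 14 listed genes 13 passed the filter, of which 3 fell, 1 rose and 9 were not called (background 7.28% and 4.74%), with a median log2 fold change of -0.38. Usp2, a deubiquitinase gene driven by the clock in many tissues, was at 122, 171 and 149 CPM in WT and 62.3, 72.3 and 69.2 CPM in Trpm2-/-. The groups were well apart, and its log2 fold change was -1.12 (SE 0.152, adjusted p = 0.00315, edgeR's quasi-likelihood test). Nampt, the rate-limiting enzyme of NAD salvage, was at 289, 242 and 269 CPM in WT and 161, 156 and 178 CPM in Trpm2-/-, a log2 fold change of -0.69 (SE 0.133, adjusted p = 0.0111). Without WT replicate 3 its adjusted p was 0.0606 by the same test, and without Trpm2-/- replicate 4 the number of outputs called was 6 in place of 4. Aqp2, the vasopressin-regulated water channel of the collecting duct, fell by 1.02 on the log2 scale (SE 0.169, adjusted p = 0.00602). Aqp2 is also a marker of collecting duct principal cells and makes up most of the sum of the collecting duct markers given below. Klf10, a zinc finger gene with clock and stress inputs, rose from 40.6, 42.3 and 33.1 CPM to 85.3, 74.8 and 78.2 CPM, by 1.04 on the log2 scale (SE 0.138, adjusted p = 0.00298). Sgk1, a kinase of sodium transport, had a log2 fold change of -0.35 (SE 0.119, adjusted p = 0.0846), and the adjusted p was 0.0400 by the DESeq2 Wald test.

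**Figure D4:**
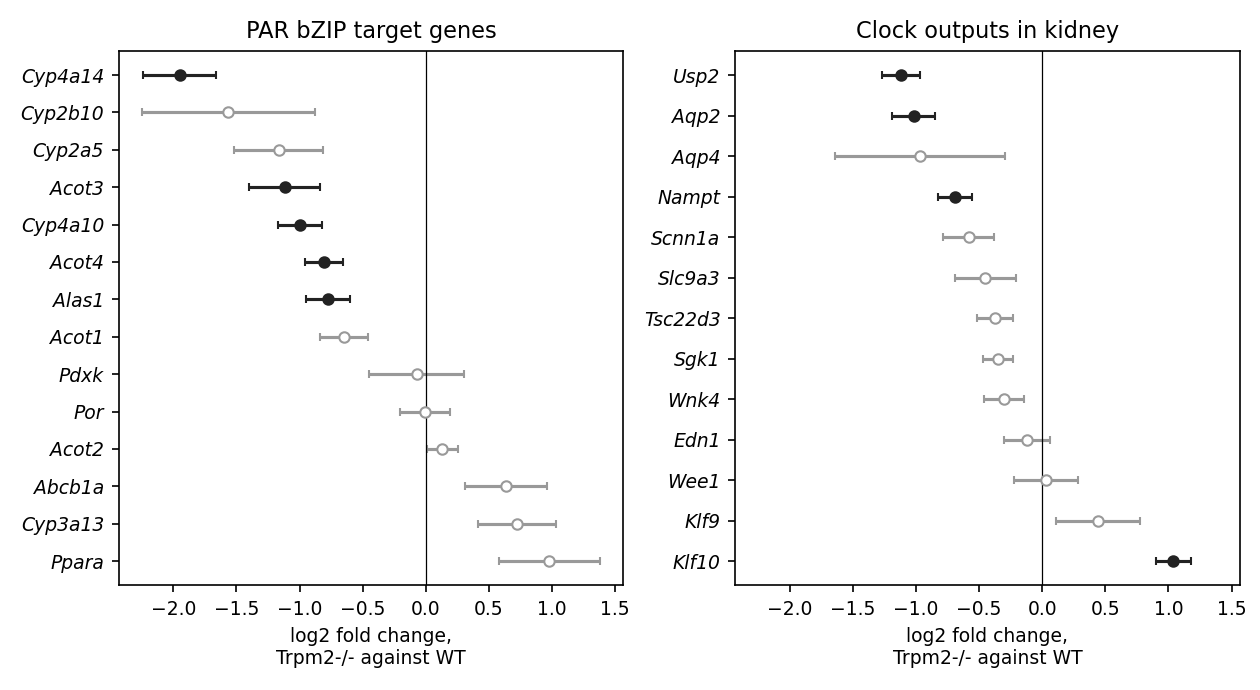
Log2 fold change of Trpm2-/- against WT with its standard error for the 14 PAR bZIP target genes (left) and 13 kidney clock outputs (right) that passed the filter. Filled black points are called at an adjusted p under 0.05 by edgeR. The called targets lie between -1.95 (Cyp4a14) and -0.77 (Alas1), and Klf10 (1.04) is the only called gene right of 0.

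The C/EBP factors, bZIP proteins that can bind sites resembling the D-box, were listed as related factors. Of 7 listed, 6 passed the filter and none was called by edgeR, DESeq2 or limma-voom after adjustment. At an unadjusted p under 0.05 each of these tools gave 1, Cebpa, at a log2 fold change of -0.37 (SE 0.154, adjusted p = 0.147 by edgeR). The share of all genes at that threshold is not given here, so nothing is read from this count. Cebpb had 0.04, Ddit3 0.11, Cebpg 0.04, Cebpz 0.03 and Cebpd -0.06. The bZIP genes of the table were also collected, a step added after values had been seen. Of the 38 that were tested besides the 4, none was lower, 3 were higher (Creb5, Fosl1 and Atf3) and 35 were not called, where 7.28% of all genes were lower and 4.74% higher. Their log2 fold changes ran from -0.84 to 1.45 with a median of 0.22. None of the 38 lay below Hlf, and 1, Nfe2l3 at -0.84, lay below Tef. The value of Nfe2l3 is uncertain (SE 0.735), with overlapping groups and 83, 5 and 29 counts in WT replicates 1, 2 and 3.

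Markers of kidney cell types moved with genotype, and in whole kidney fewer cells of a type and less RNA per cell cannot be told apart. Of 8 proximal tubule markers 7 fell (7.28% of all genes were called lower and 4.74% higher), all 8 had Trpm2-/- kidneys below WT, and their summed level was 2773 to 3662 CPM in WT and 930 to 1221 CPM in Trpm2-/-, a ratio of 0.347. Single markers ran from 0.151 of the WT level (Slc34a1, the sodium-phosphate cotransporter) to 0.589 (Lrp2, the endocytic receptor megalin) and 0.712 (Hnf4a, a transcription factor, not called). Hlf, at 0.354, lay inside this range, as did Tef, at 0.608. Injured tubule markers summed to 2765 to 3290 CPM in WT and 3849 to 4862 CPM in Trpm2-/-, and 2 of 5 (Krt20 and Sox9) rose. The sums of collecting duct markers were 1206 to 1484 and 696 to 815 CPM, with 2 of 5 (Aqp2 and Aqp3) lower. Aqp2 made up most of these sums, at means of 1124 CPM in WT and 555 CPM in Trpm2-/-. Of the markers not called, Slc4a1 had a log2 fold change of -1.57, Atp6v1g3 of 0.01 and Foxi1 of 0.28. The sums of thick limb and distal tubule markers were 787 to 2153 and 254 to 903 CPM, with 1 of 3 tested lower. None of 3 podocyte, 4 endothelial, 3 fibroblast or 4 leukocyte markers tested was called. Leukocyte sums were 63.3 to 77.1 CPM in WT and 60.5 to 79.4 CPM in Trpm2-/-. Cd68 made up most of these sums, at means of 65.5 and 62.9 CPM, so they say little of the other leukocyte markers. Ptprc was at 1.79 to 3.37 CPM in WT and 3.69 to 5.23 CPM in Trpm2-/-. Its groups were apart, at a log2 fold change of 0.76 (adjusted p = 0.164, edgeR), while the other 3 leukocyte markers tested overlapped. Natural killer and innate lymphoid markers, cells in which Nfil3 is known to act, summed to at most 0.432 CPM, and Ncr1 was at 0 in all libraries. Markers were not measured in sorted cells, and the part of cell composition in the values of Hlf and Tef was not tested.

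For each of the 4 genes the level was then set against the proximal tubule markers of the same kidney, a ratio chosen after the values had been seen. Per 1000 CPM of these markers, Hlf was at 16.5, 14.1 and 15.2 CPM in WT and 15.8, 11.0 and 18.7 CPM in Trpm2-/-. Relative to this sum the Hlf groups overlapped, with means of 15.3 and 15.2. Tef on this scale was at 79.9, 80.1 and 76.2 CPM in WT and 118, 148 and 149 CPM in Trpm2-/-. On this scale Trpm2-/- was above WT, but this depended on the marker. Against each of the 8 markers singly, Trpm2-/- kidneys were all above WT for Tef with 4 (Cubn, Slc34a1, Slc22a6 and Aqp1) and overlapped WT with the other 4, Lrp2 and Hnf4a among them. For Hlf the groups overlapped with 6 markers, while Trpm2-/- kidneys were all above WT with Slc34a1 and all below WT with Lrp2. Dbp averaged 5.93 and 15.1 CPM and Nfil3 9.34 and 25.6 CPM per 1000 CPM of markers in WT and Trpm2-/-. The 4 genes are not known to be limited to the proximal tubule, so the ratio does not correct for cell number.

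**Figure D5:**
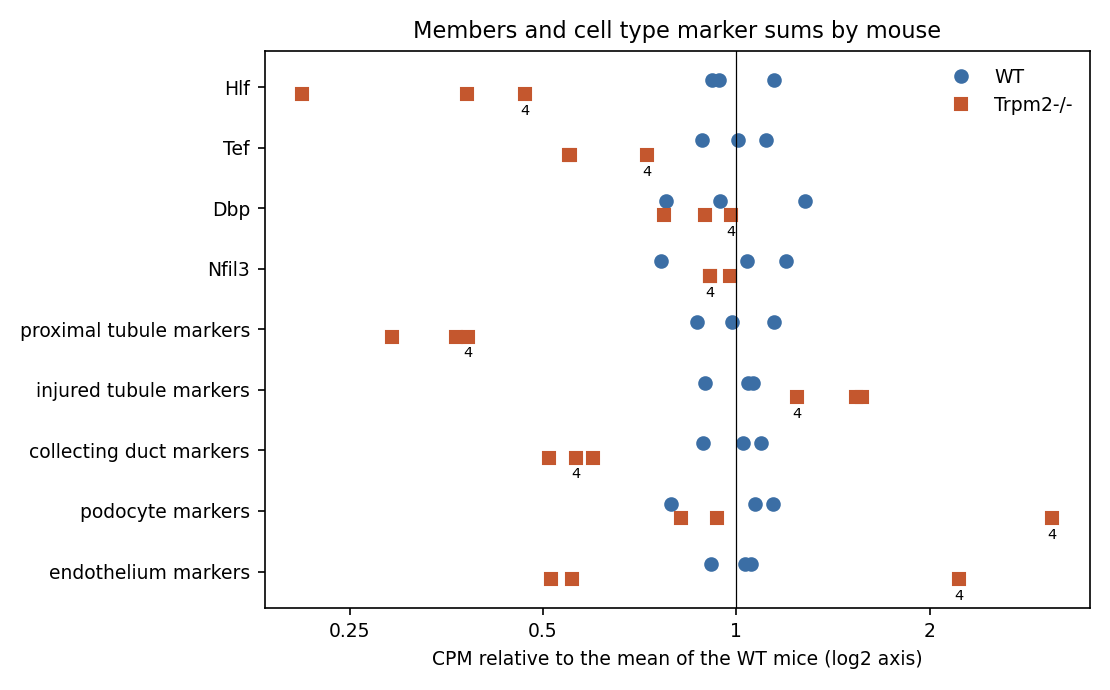
CPM of the 4 genes and summed CPM of marker lists in each kidney, relative to the mean of the WT kidneys (log2 axis), with Trpm2-/- replicate 4 numbered. Hlf and the proximal tubule markers both lie below 0.5 in all Trpm2-/- kidneys, and replicate 4 lies above 2 for podocyte and endothelial markers.

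The genes whose profile over the 6 kidneys was most like each of the 4 were found as the smallest root mean square difference of log2 CPM, each centred on its own mean, among 13010 genes. For Hlf these were Sucnr1 (0.136), Cubn (0.140) and Pcca (0.142), which encode the succinate receptor, the endocytic receptor cubilin and a subunit of propionyl-CoA carboxylase. Cubn is also on the list of proximal tubule markers. Their log2 fold changes were -1.54, -1.39 and -1.42. Tef was 462nd in the order for Hlf, with a difference of 0.504, while Hlf was 7304th in the order for Tef at the same difference. For Tef the nearest were Acadsb (0.0247), Slc5a9 (0.0525) and Sult1c2 (0.0628). Acadsb encodes a mitochondrial acyl-CoA dehydrogenase, and its log2 fold change was -0.68. For Dbp they were Ppp2r3c (0.0599), Ppfia4 (0.0729) and Tamm41 (0.0868), and for Nfil3 they were Ap5s1 (0.0660), Plekho1 (0.0870) and Sun2 (0.0871). Nfil3 was 64th in the order for Dbp, at 0.156, and Dbp was 344th in the order for Nfil3. With 3 kidneys a genotype, many genes share a profile by genotype alone, and likeness here is a description of 6 values.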

How the data were processed

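Per the labels, total RNA was extracted with Trizol, and the methods name an NEBNext Ultra II kit and an Illumina HiSeq instrument. The submitters' processing notes name HISAT2, StringTie and mm9, but the positions deposited for the 4 genes are those of GRCm38. The authors deposited whole-number read counts per gene, without normalization, and FPKM values scaled by gene length and library. Tests on counts used edgeR 4.0.16 under R 4.3.3 (filterByExpr, TMM normalization, quasi-likelihood test, genotype only, Benjamini-Hochberg adjustment over 15816 genes), and CPM values use TMM-scaled library sizes. Standard errors are of the log2 fold change, computed back as its absolute value divided by the square root of edgeR's F statistic. FPKM was used for levels and sums between genes and, among the alternatives, for the limma fits on FPKM. Alternatives used DESeq2 1.42.0 and limma 3.58.1. Windows of promoters are from RefSeq, and exons and shared 50-base windows from GENCODE. The 4 genes and all lists were chosen with earlier results of these data known. Named genes are the 4, core clock genes, from each other list up to 5 with the smallest p, and 3 per gene by likeness (mean of at least 1 CPM, no Gm or Rik names). Others were named after their values were seen.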

Additional observations from a re-analysis of the deposited data

How the results depend on the processing

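Across 16 alternatives, the log2 fold change of Hlf was between -1.74 and -1.20 and that of Tef between -0.85 and -0.64, below 0 in each. Dbp (-0.34 to 0.03) and Nfil3 (-0.27 to 0.04) turned above 0 without WT replicate 2. Numbers 1 and 2 occur in both genotypes, and what the numbers stand for is not given. Same-numbered libraries of the 2 genotypes hardly deviated together over 15816 genes (r = 0.0453 and -0.0146). Whether they shared a processing step was not tested. In a fit with the replicate number as a block, WT replicate 3 and Trpm2-/- replicate 4 are each alone in their block. Its genotype estimate thus rests on replicates 1 and 2 of each genotype, and its counts also reflect the loss of these libraries. With the replicate block, Hlf was at -1.70 and Tef at -0.78. Then 0 core clock genes passed the threshold in place of 1 (counts given as a description, since these genes served in the choice). In this fit 661 genes were lower and 341 higher in place of 1152 and 750. The replicate block also turned Cebpd to 0.18 and Cebpz to -0.10, and called 4 targets and 5 clock outputs. Of the targets, Cyp4a10 (-0.91), Acot4 (-0.68) and Alas1 (-0.59) were then not called while Cyp2a5 and Ppara were, and of the outputs Scnn1a was added. Core clock genes past the threshold numbered 2 with upper quartile normalization, 3 with the DESeq2 Wald test, 2 with limma on log2(FPKM + 1) and 2 on log2(FPKM + 0.1), and 0 to 3 when 1 library was left out. Without a filter on low counts, 9 targets, 7 clock outputs and 1262 genes higher were called. Acot3 lost its call in both FPKM fits. Leaving out 1 library gave 2 to 7 targets, 3 to 6 clock outputs, 470 to 1240 genes lower and 160 to 819 higher. The count of lower genes was 470 without WT replicate 3 and 521 without WT replicate 2. The count of higher genes was 160 and 176 without these and 421 without Trpm2-/- replicate 1. Leaving out 1 library moved Ddit3 between -0.074 and 0.23, Cebpg between -0.017 and 0.089, Cebpd between -0.27 and 0.16 and Cebpz between -0.093 and 0.15. C/EBP calls stayed at 0 in all alternatives. The cause of these changes was not tested beyond what each alternative removes. Depth limited genes near 3 counts, which the filter leaves out, and none of the 4 was near it.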
